A study of Mus musculus with 8 samples.

Results

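Defb8 is a mouse beta-defensin gene, and it was 1 of 24612 genes in a table of RNA sequencing values from 8 skin libraries. It was chosen by its deposited values, which are above 0 in both PBS libraries and at 0 in every bleomycin and celastrol library, so its levels are given as a description with no test. The other 7 rows whose symbol is Defb followed by a number serve as context. Values are gene counts divided by a size factor per library, on a linear scale, as deposited by the authors.

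The skin came from male mice of the strain C57 BL/6 J whose treatment began at 6 weeks, and RNA was extracted from homogenized whole skin. Day 21 is the day of all 8 libraries, and celastrol was given for 21 days. Mice of the PBS group (2 libraries) were given 0.1 mL of phosphate buffered saline under the skin. Mice of the bleomycin group (3 libraries) were given 0.1 units of bleomycin, a DNA-damaging agent used to model skin fibrosis, by the same route. Mice of the celastrol group (3 libraries) were given celastrol, a plant triterpenoid, into the peritoneum daily, in a dose of 1 or 2 mg/kg. Neither the dose of each celastrol library nor any bleomycin given to these mice is stated in the labels. As labelled, the celastrol group differs from PBS in agent and in route. Library numbers below are those of the labels. The labels do not say that each library is a separate animal, so the spread between libraries may be partly technical.

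Beta-defensins are small cationic peptides that epithelial cells secrete. They hold a fold fixed by disulfide bonds between cysteines, disturb bacterial membranes, and can attract immune cells through chemokine receptors. Skin keratinocytes make several of them, some constitutively and some after contact with microbes or inflammatory cytokines. In mice most beta-defensin genes lie in clusters. The RefSeq gene table gives Defr1 as another name of Defb8, a name first used for the form found in C57BL/6 mice, whose peptide lacks a cysteine of the canonical pattern and kills bacteria in vitro.

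In the GRCm38 annotation Defb8 lies on the minus strand at chr8:19445769-19447606, and these positions are those of the deposited table. The gene has 2 exons, of 71 and 216 bases, separated by an intron of 1551 bases. Exon 1 holds 13 bases of the 5′ untranslated region and the first 58 coding bases, and exon 2 holds the rest of the coding sequence and a 3′ untranslated region of 91 bases. The spliced transcript is 287 bases long. The reference is a C57BL/6J genome, the strain that the labels name for the mice.

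The coding sequences of Defb8 and of 3 relatives from the same cluster are shown to make plain how much sequence they share, since shared sequence bears on which gene a read is counted for. They are the GENCODE M21 transcripts on GRCm38, 5′ to 3′ from the start codon to the stop codon, with cysteine codons in capitals.
Defb8: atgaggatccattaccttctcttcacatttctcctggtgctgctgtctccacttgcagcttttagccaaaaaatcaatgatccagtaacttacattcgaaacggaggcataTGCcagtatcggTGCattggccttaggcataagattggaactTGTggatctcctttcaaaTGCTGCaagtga
Defb7: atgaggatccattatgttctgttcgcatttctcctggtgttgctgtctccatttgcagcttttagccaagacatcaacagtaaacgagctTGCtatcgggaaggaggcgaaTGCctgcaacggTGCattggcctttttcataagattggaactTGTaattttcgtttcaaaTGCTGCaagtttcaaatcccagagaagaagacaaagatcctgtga
Defb6: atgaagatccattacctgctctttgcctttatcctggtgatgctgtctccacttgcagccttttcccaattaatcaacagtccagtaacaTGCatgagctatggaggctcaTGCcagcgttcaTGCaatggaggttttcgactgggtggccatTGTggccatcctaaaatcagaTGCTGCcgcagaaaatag
Defb4: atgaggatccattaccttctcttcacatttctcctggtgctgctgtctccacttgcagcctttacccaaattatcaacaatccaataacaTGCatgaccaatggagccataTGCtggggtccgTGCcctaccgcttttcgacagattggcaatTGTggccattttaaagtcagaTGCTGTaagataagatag
The reading frame of Defb8 has 60 codons before the stop and 5 cysteine codons, where those of Defb7, Defb6 and Defb4 each have 6. In a global alignment the Defb8 coding sequence was 68.3% identical to that of Defb7, 68.4% to Defb6, 74.9% to Defb4 and 79.4% to Defb3, the closest of the 6 relatives aligned. The 7 rows of the deposited table other than Defb8 include neither Defb3 nor Defb5.

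Runs of identical bases were longer than these percentages show. The first 72 bases of the Defb8 transcript, which hold all of exon 1, are the same in Defb4. The last 39 bases, in the 3′ untranslated region, are the same in Defb7. Of 238 windows of 50 bases in the Defb8 transcript, 23 occurred in another annotated transcript, all in Defb4. Of 258 windows of 30 bases, 53 occurred in another gene, and these genes were Defb3, Defb4, Defb5 and Defb7. The rest of the Defb8 transcript had no such match among the annotated transcripts of GENCODE M21.

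The 250 bases before the start of Defb8, at chr8:19447607-19447856 on the minus strand of GRCm38 (from RefSeq), are given to show the sequence that precedes exon 1, with the bases TATATAA in capitals.
Defb8 upstream: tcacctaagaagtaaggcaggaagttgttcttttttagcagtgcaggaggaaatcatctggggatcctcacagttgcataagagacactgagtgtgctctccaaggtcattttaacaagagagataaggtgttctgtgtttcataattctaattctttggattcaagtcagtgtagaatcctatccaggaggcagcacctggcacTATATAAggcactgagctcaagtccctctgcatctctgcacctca
The motif TATATAA was searched on both strands in windows reaching 50 bases past the start. In Defb8 it lies 45 to 39 bases before the start. It was found in 1065 of 32851 promoter windows of the same 300 bases (3.24%). The windows of Defb6 and Defb7 held it too, and those of Defb41 and Defb42 did not. A match describes the letters of the window and is no evidence of binding.

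The libraries were checked before the levels were read. Summed values lay between 22917554 and 26381997, and depth, estimated from the value of a single read, between 14944752 and 37077842 reads. Keratins of the basal and upper epidermis were abundant in every library, with Krt5 at 20750 or more and Krt10 at 37107 or more. Celastrol 2 stood apart by its zeros, with 4165 genes at 0, where the others had 593 to 3001. Of 11797 genes at 100 or more in all other libraries, 9 were at 0 in Celastrol 2, and in each other library this number was 0 or 1. None of 15 housekeeping genes was at 0 in any library. In whole skin, fewer cells that express a gene and less RNA per cell cannot be told apart.

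Defb8 had a value of 563 in PBS 2 and 1283 in PBS 3. It was at 0 in Bleomycin 2, Bleomycin 3, Bleomycin 4, Celastrol 2, Celastrol 3 and Celastrol 5. The PBS libraries were thus the high ones, PBS 3 lay above PBS 2 by more than 2-fold, and no library of the other groups held any signal. The mean was 923 ± 509 (SD, n = 2) in PBS. The order of levels ended there, since the 6 libraries at 0 cannot be ranked among themselves.

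In reads, the Defb8 values came to 810 in PBS 2 and 1163 in PBS 3, both within 0.03 reads of a whole number. Many genes of the table carry fractional reads, and 1198 values of the table are minute but not 0. The Defb8 entries showed neither, and its zeros are exact. Relative to the estimated depth, Defb8 stood at 24.1 CPM in PBS 2 and 53.6 CPM in PBS 3. The 6 libraries at 0 hold an estimated 150453490 reads in all, against 55325054 in PBS.

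A count of 0 allows up to 3 reads in a library, which is 0.0809 CPM in Celastrol 5, the deepest, and 0.201 CPM in Celastrol 3, the shallowest. With that floor in each library, Defb8 was at least 338-fold lower in bleomycin than in PBS and at least 229-fold lower in celastrol than in PBS. Leaving out Celastrol 2 the celastrol bound was 257-fold. Against the lower PBS library alone the bounds were 206-fold for bleomycin and 139-fold for celastrol. These bounds cover counting error only, not the spread between mice. Between celastrol and bleomycin no fold can be given, since both groups are at 0.

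**Figure D1:**
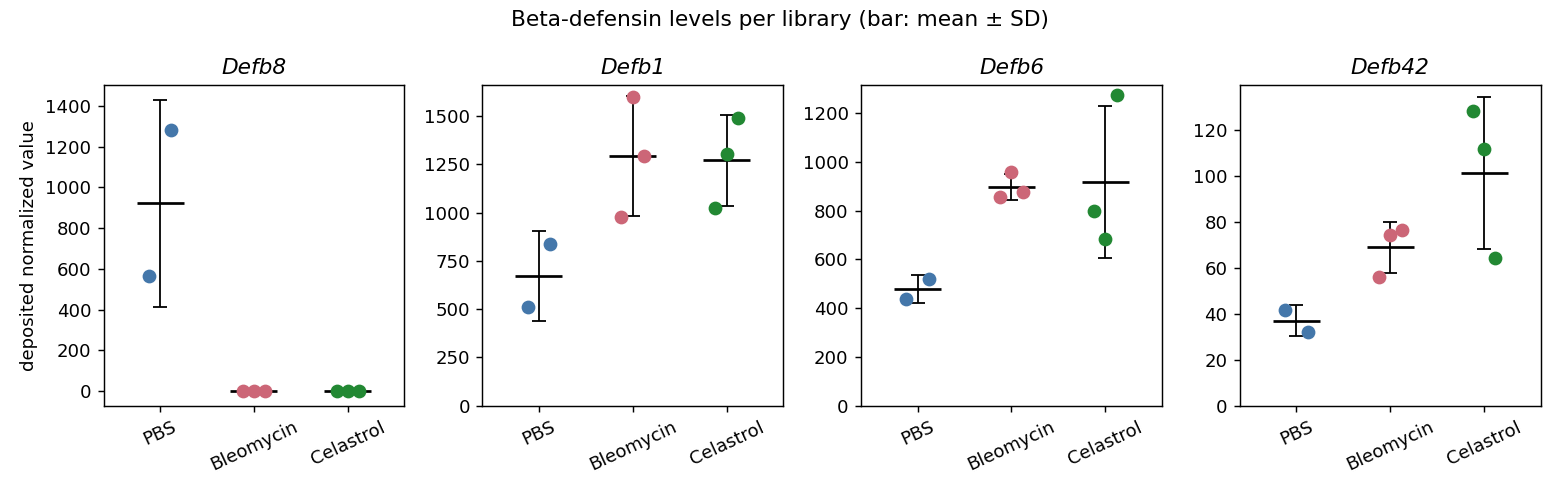
Deposited normalized values of Defb8, Defb1, Defb6 and Defb42 in each library (points), with the group mean and SD (bars), on a linear axis for each gene. Defb8 is at 563 and 1283 in PBS and at 0 in the 6 other libraries, whereas the 3 other genes have a value in every library.

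Within PBS skin Defb8 was a gene of middle to high rank. In PBS 2 its value exceeded that of 71.0% of genes in the table and ranked 7128 from the top. In PBS 3 it exceeded 84.3% and ranked 3854. It made up 0.00241% of the summed values of PBS 2 and 0.00536% of those of PBS 3.

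How often a gene of the table behaves in this way was counted over all rows. Of 18117 genes at 20 or more in both PBS libraries, 1 was at 0 in all 6 other libraries, and that gene was Defb8. With the floor raised to 100 the count was still 1. When PBS 3 alone had to reach 20, 8 genes met the condition, and with PBS 2 alone 1 gene did. Just outside the floor of 20 lay AC107792.1, with 18.1 in PBS 2 and 36.4 in PBS 3. Altogether 21 genes were at 0 in those 6 libraries, and after Defb8 the highest PBS mean among them was 27.2. The mirror condition, 0 in both PBS libraries and 20 or more in the 6 others, was met by 2 genes, Slc24a5 and Tmprss11d. These counts carry no test, because Defb8 was chosen for the pattern that they count.

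**Figure D2:**
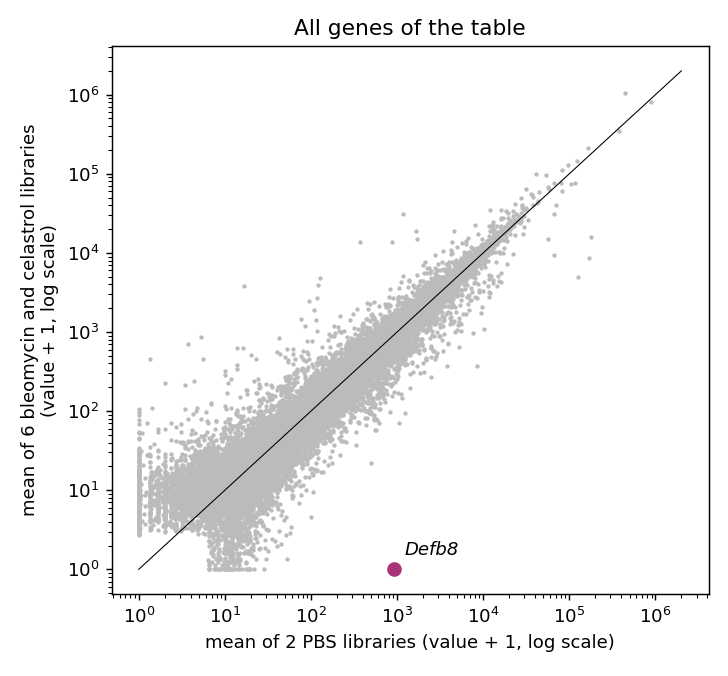
Mean of the 2 PBS libraries (horizontal) against the mean of the 6 bleomycin and celastrol libraries (vertical) for every gene of the table, as value plus 1 on log axes, with the line of equality. Defb8 lies on the lower edge at a PBS mean of 923, while the other genes on that edge have PBS means of 27.2 or less.

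In all, 26 genes were below 1 in some library while reaching 500 or more in another. Defb8 was below 1 in 6 libraries. Among the others the most was 2 libraries, reached by Myh3 and S100a8.

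Differences of the other beta-defensins between groups were tested by limma on log2 of the value plus 1 across all genes, with Benjamini-Hochberg adjustment over 23185 genes and a threshold of 0.05. In bleomycin against PBS that test called 0.677% of all genes (0.453% higher, 0.224% lower), and in celastrol against PBS 1.37% (0.824% higher, 0.543% lower). For celastrol against PBS these were 191 genes higher and 126 lower, and 111 higher and 151 lower after scaling to a common upper quartile. In celastrol against bleomycin it called 0 genes (0%), with 898 at an unadjusted p below 0.05. Of the 7 other beta-defensin rows 5 reached 10 in 2 or more libraries and were tested, Defb1, Defb4, Defb6, Defb12 and Defb42, and 0 passed in each comparison. At an unadjusted p below 0.05 there were 2 in bleomycin against PBS, 3 in celastrol against PBS and 0 in celastrol against bleomycin. The median log2 change of the 5 was 0.91 in bleomycin against PBS and 0.95 in celastrol against PBS, beside medians over all genes of 0.00 and -0.07.

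Defb1 is the mouse counterpart of human DEFB1, a beta-defensin that epithelia make constitutively. Its value was 508 and 836 in the PBS libraries, 979, 1603 and 1296 in Bleomycin 2, 3 and 4, and 1023, 1302 and 1490 in Celastrol 2, 3 and 5. All 6 libraries in which Defb8 was at 0 thus had more Defb1 than either PBS library, a separation that 5.93% of all genes tested showed in this direction. The log2 change was 0.96 ± 0.29 (SE) in bleomycin against PBS and 0.95 ± 0.29 in celastrol against PBS, and neither passed in limma (adjusted p = 0.272 and 0.189).

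Defb6, a gene of the Defb8 cluster known in mice for expression in skeletal muscle, was at 436 and 520 in PBS 2 and PBS 3. It was at 857, 958 and 878 in Bleomycin 2, 3 and 4, and at 798, 685 and 1273 in Celastrol 2, 3 and 5. The PBS libraries were the lowest pair, as for 5.93% of all genes tested. The log2 changes against PBS were 0.91 ± 0.27 for bleomycin and 0.89 ± 0.27 for celastrol, and neither passed in limma (adjusted p = 0.271 and 0.191). Beside Defb6, the 14 skeletal muscle markers summed to between 92945 and 124974 in PBS libraries. Their sums lay between 119262 and 211617 in bleomycin and between 218361 and 299686 in celastrol libraries. PBS and bleomycin overlapped in these sums and in Acta1. They did not overlap in Myh1, at 12751 and 11297 in PBS and 24581 to 34264 in bleomycin, nor in Myh4, Tnni2, Tnnc2 and Actn3. In the remaining markers listed they overlapped. Where PBS and bleomycin did not overlap, PBS lay below celastrol too, as for 5.93% of all genes tested. The part of muscle in the Defb6 levels was not tested. Between celastrol and bleomycin Defb6 differed by -0.02 ± 0.24 and Defb1 by -0.01 ± 0.26 (limma adjusted p = 0.999 and 1).

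Defb42, on chromosome 14 outside the cluster, was an order of magnitude lower in value. It was at 41.6 and 32.1 in PBS, at 56.1, 74.2 and 76.4 in Bleomycin 2, 3 and 4, and at 128, 111 and 64.3 in Celastrol 2, 3 and 5. The PBS libraries were the lowest pair here as well, against the same 5.93% of all genes tested. The log2 changes were 0.88 ± 0.60 and 1.39 ± 0.60, with limma adjusted p of 1 and 0.387.

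The remaining rows were near the detection limit. Defb4, an inducible beta-defensin, was at 0 in both PBS libraries, at 2.75, 23.5 and 3.67 in Bleomycin 2, 3 and 4, and at 0, 21.9 and 0 in Celastrol 2, 3 and 5. It entered the test through Bleomycin 3 and Celastrol 3 alone. Defb7, the nearest beta-defensin to Defb8 on the chromosome, was at 8.83 in PBS 3 and 24.8 in Bleomycin 3 and at 0 elsewhere. Defb12 reached 12.8 at most and Defb41 33.7, the latter in 1 library. Defb4 and Defb7, the rows that share runs of 30 bases or more with Defb8, thus stayed at 24.8 or less in the libraries where Defb8 was at 0.

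For a rough comparison between the genes, levels were divided by the length of the longest coding transcript. This takes no account of fragment size or of other isoforms. On that scale Defb8 stood at 1963 per kb in PBS 2 and 4471 per kb in PBS 3. Defb6 stood at 1350 and 1609 per kb there, and Defb1 at 583 and 959 per kb. Defb8 was thus the highest of the 8 rows per length in both PBS libraries. In the other groups Defb6 had the highest mean per length, 2779 per kb in bleomycin and 2844 per kb in celastrol, and Defb1 the next, 1482 and 1458 per kb.

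Summed over the 8 rows, the family value was 1554 in PBS 2 and 2680 in PBS 3. In bleomycin libraries it was 1895, 2683 and 2266, and in celastrol libraries 1948, 2154 and 2840. With Defb8 included the groups overlapped. Without Defb8 the sum was 990 and 1397 in PBS and between 1895 and 2840 in the 6 other libraries, with no overlap. Of all genes tested, 5.93% showed this separation. Defb1 and Defb6 alone summed to 944 and 1356 in PBS and to between 1820 and 2763 in the 6 others. The sum without Defb8 thus mostly restates those 2 genes, neither of which was called. Defb8 made up 36.3% of the family sum in PBS 2 and 47.9% in PBS 3. These sums hold Defb8 or were set against it, and carry no test.

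**Figure D3:**
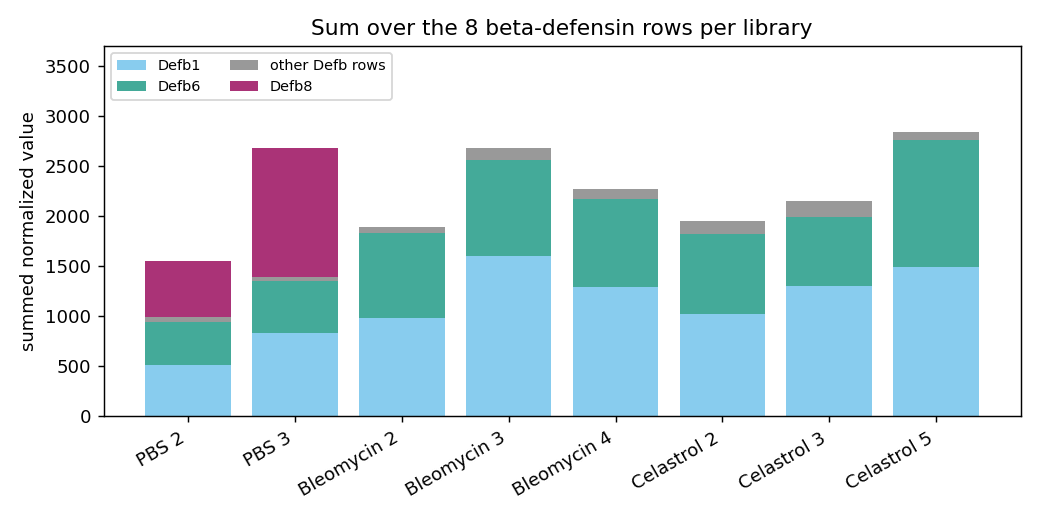
Stacked normalized values of Defb1, Defb6, Defb8 and the other 5 beta-defensin rows in each of the 8 libraries, on a linear axis from 0. Defb8 takes 36.3% and 47.9% of the stack in the PBS libraries and none of it elsewhere, where Defb1 and Defb6 fill nearly all of a stack of 1895 to 2840.

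Genes around Defb8 were read to see whether its neighbours shared the pattern. Of the rows of the table, 8 others lay within 500 kb, with Defb12, Gm39139, Defb4 and Defb6 on one side and Rpl19-ps11, Defb7, Gm6483 and 4930467E23Rik, up to 282 kb away, on the other. The ribosomal protein pseudogene Rpl19-ps11, 45.3 kb from the Defb8 start, was at 2766 and 4678 in PBS, at 3327, 5361 and 6527 in Bleomycin 2, 3 and 4, and at 5506, 5715 and 8828 in Celastrol 2, 3 and 5. Reads of Rpl19-ps11 may be shared with other Rpl19 copies, so its level is uncertain. The pseudogene Gm6483, 234.8 kb away, lay between 88.4 and 382 over all libraries, with both PBS libraries inside that range. The noncoding RNA gene Gm39139 lay between 2.61 and 81.0, likewise with PBS inside.

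Of the 7 neighbours tested 0 passed in either comparison with PBS, where 0.677% (bleomycin) and 1.37% (celastrol) of all genes did. Their log2 changes ranged from -1.34 ± 2.15 (4930467E23Rik) to 2.92 ± 1.85 (Defb4) in bleomycin, and from -0.43 ± 0.55 (Gm6483) to 1.51 ± 1.85 (Defb4) in celastrol. The smallest limma adjusted p among them was that of Defb6 in both. Apart from Defb6 and Rpl19-ps11 the standard errors were 0.55 or more, so sizeable changes of these neighbours would not have been detectable.

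**Figure D4:**
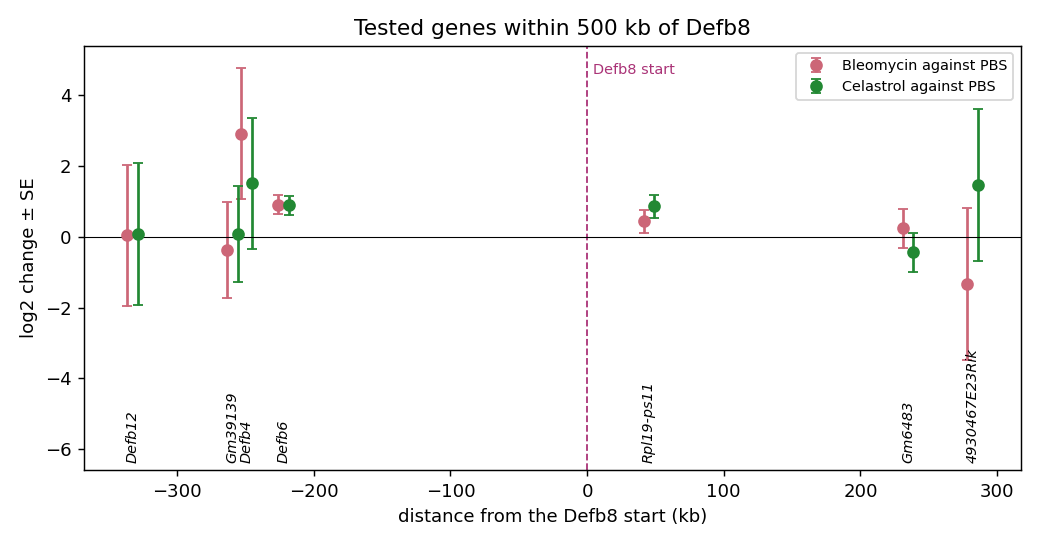
Log2 change with its SE for the 7 tested genes within 500 kb of the Defb8 start (dashed line), against distance in kb along the chromosome, for bleomycin against PBS and celastrol against PBS. Defb6 lies at 0.91 and 0.89 with narrow errors, and the genes with the widest errors are those of low value.

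The genes whose pattern was most like that of Defb8 were named by Pearson correlation of log2 of the value plus 1 over the 8 libraries, among 19498 genes with a mean of at least 20. The 10 highest were Cidea, Arhgap20, Cpxm2, Hacd2, Klhl13, Aadacl2fm1, Kcnj8, Sntb2, Tnmd and Zic1, with r from 0.984 down to 0.965. Because 6 of the 8 Defb8 values are 0, Defb8 itself correlates at 0.998 with a plain split of PBS from the rest, and the measure mostly finds genes with that split. By Spearman correlation those libraries tie, and a gene with different values in all 8 libraries can reach a rho of 0.764 at most. The 10 genes had a rho of 0.764 or 0.733. None could therefore be among the 23 genes at or above the tenth rho of 0.768, so that count does not speak against them.

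These genes shared the order of the groups with Defb8 but not its extent. Cidea, which codes for a lipid droplet protein of sebocytes and brown adipocytes, was at 812 and 943 in PBS and between 217 and 305 in the 6 others. Tnmd, which codes for the tendon glycoprotein tenomodulin, was at 529 and 545 in PBS and between 48.5 and 114 in the others. Zic1, a zinc finger transcription factor gene, was at 625 and 734 in PBS and between 120 and 210 in the others. Over the 10 genes the bleomycin and celastrol libraries held between 9.03% and 65.0% of the gene's PBS mean, and Defb8 held 0%.

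**Figure D5:**
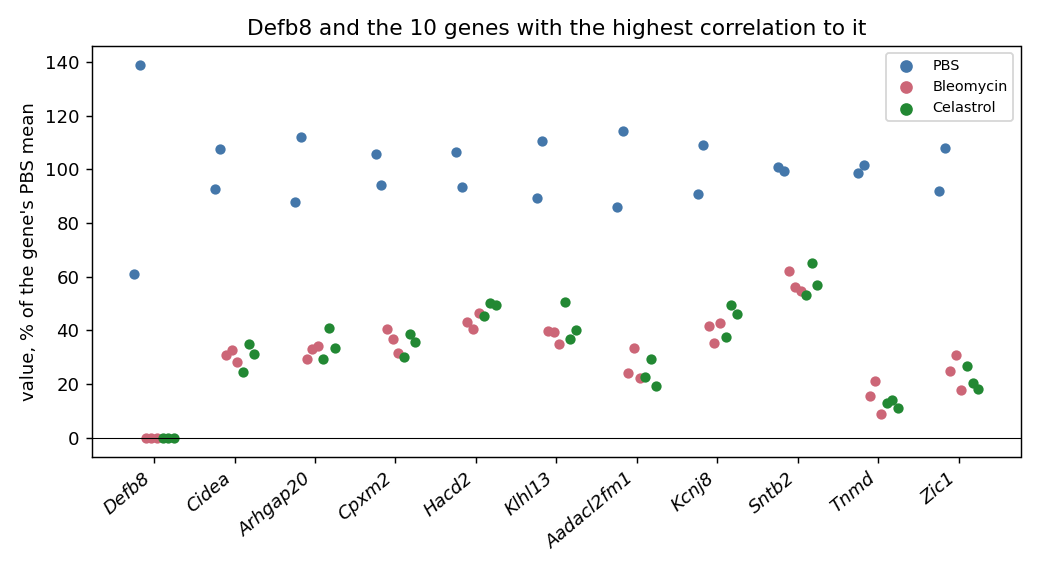
Value of Defb8 and of the 10 genes with the highest correlation to it, as a percentage of each gene's own PBS mean, with 1 point per library coloured by group. The 10 genes keep 9.03% to 65.0% of their PBS mean in bleomycin and celastrol libraries, while Defb8 is at 0 in all 6.

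Other antimicrobial genes of skin were read beside Defb8, from a list of 32 that leaves out beta-defensins. Of 21 tested, 3 rose and 2 fell in bleomycin against PBS, and 4 rose and 3 fell in celastrol against PBS, by limma over all genes. The shares of all genes were 0.453% higher and 0.224% lower in bleomycin, and 0.824% higher and 0.543% lower in celastrol. The list median of the log2 change was 0.63 and 0.65, beside 0.00 and -0.07 over all genes. In celastrol against bleomycin 0 passed, as over all genes, with 2 of the list at an unadjusted p below 0.05.

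The members that fell with Defb8 were S100a7l2, Rnase4 and, in celastrol, Lyz1. S100a7l2, a relative of the gene for the human epidermal antimicrobial protein psoriasin, was at 1700 and 3194 in PBS, at 334, 447 and 199 in Bleomycin 2, 3 and 4, and at 125, 378 and 120 in Celastrol 2, 3 and 5. Its log2 change was -2.91 ± 0.53 (limma adjusted p = 0.0385) and -3.70 ± 0.53 (adjusted p = 0.0107). Rnase4, a secreted ribonuclease gene, changed by -1.27 ± 0.19 (adjusted p = 0.0199) and -0.92 ± 0.19 (adjusted p = 0.0439). Lyz1, one of the mouse lysozyme genes, was at 642 and 445 in PBS, at 177, 105 and 100 in Bleomycin 2, 3 and 4 (-2.11 ± 0.49, limma adjusted p = 0.101) and at 39.1, 45.0 and 67.2 in Celastrol 2, 3 and 5 (-3.42 ± 0.49, adjusted p = 0.0106).

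The members that rose were Chil3, Lcn2 and S100a8 in both comparisons, and S100a9 in celastrol. Lcn2, whose product withholds iron from bacteria by binding siderophores, was at 11.1 and 14.3 in PBS, at 214, 490 and 880 in Bleomycin 2, 3 and 4, and at 545, 285 and 1371 in Celastrol 2, 3 and 5. Its log2 change was 5.05 ± 0.69 (limma adjusted p = 0.0131) and 5.46 ± 0.69 (adjusted p = 0.00645). Antimicrobial genes were therefore called in both directions in the libraries where Defb8 was at 0.

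Most of these calls were lost when a single library was left out. In bleomycin against PBS, Chil3 alone passed without PBS 2, without PBS 3 or without Bleomycin 3, and 0 members passed without Bleomycin 4. S100a7l2 also lost its call there without Celastrol 2 or Celastrol 5, and S100a8 kept its call there only when Bleomycin 2 was the library left out. In celastrol against PBS, Chil3 and Lcn2 passed in all 8 fits with 1 library left out. S100a7l2 lost its call there without PBS 3 or Celastrol 5, Lyz1 without PBS 2 or PBS 3, and S100a8 without PBS 2, PBS 3 or Celastrol 5. Rnase4 passed there only without Bleomycin 2, and S100a9 only without Bleomycin 2 or Bleomycin 3.

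Genes of the cytokines, receptors and transcription factors known to induce or sense beta-defensins gave no calls among those measured. Of 32 listed, 26 were measured. Il17a, Il22, Il36a, Il36b, Il36g and Il36rn had no row under these symbols, so their levels are not known here. Of 26 tested, 0 passed in limma in each comparison. Over all genes 0.677% passed in bleomycin against PBS, 1.37% in celastrol against PBS and 0% in celastrol against bleomycin. Beside such low shares, 0 of 26 does not set these genes apart. In the same order, 3, 6 and 2 of them had an unadjusted p below 0.05 in limma, beside 1582, 2791 and 898 of 23185 genes. The list medians were 0.06, 0.03 and -0.08. Nfkbiz, a nuclear cofactor of NF-kappa-B in keratinocytes, lay between 2139 and 4420 over all libraries. Tlr2, a receptor for bacterial lipoproteins, had log2 changes of 1.66 ± 0.51 and 1.47 ± 0.51 against PBS, with limma adjusted p of 0.283 and 0.255.

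Markers of several skin cell types differed between PBS and the other groups, and their part in the Defb8 pattern was not tested. The counts called below stand beside shares over all genes. Against PBS these were 0.453% higher and 0.224% lower in bleomycin, and 0.824% higher and 0.543% lower in celastrol. Fibroblast markers summed to between 384522 and 799248 in PBS, to between 40823 and 119430 in bleomycin and to between 38879 and 91517 in celastrol libraries, with 8 and 9 of 14 called as lower. The collagen genes Col1a1, Col1a2 and Col3a1 made up most of the PBS sums and fell most. Their log2 changes were -3.59 to -4.91 in bleomycin and -3.65 to -5.48 in celastrol. The list medians were -1.97 and -1.95, and Thy1 changed by 0.06 and -0.04. Sebaceous gland markers summed to between 187632 and 207284 in PBS, to between 77316 and 117364 in bleomycin and to between 98173 and 178161 in celastrol, with 2 and 4 of 17 called as lower. Genes of wounded epidermis summed to between 2438 and 9714 in PBS, to between 19321 and 159108 in bleomycin and to between 55534 and 102189 in celastrol, with 5 and 7 of 16 called as higher. Markers of the basal epidermis overlapped between the groups, at 264426 to 333088 in PBS and 276656 to 390486 in the 6 others, with 0 of 12 called in limma. The calls of these lists rested on few libraries, since without PBS 3 there was 0 of 14 for fibroblasts and 0 of 17 for the sebaceous gland in each comparison with PBS, and without PBS 2 as well. In bleomycin both lists also had 0 calls without Bleomycin 3 or Bleomycin 4, and fibroblasts had 0 in celastrol without Celastrol 5. For wounded epidermis 1 was called in bleomycin without PBS 3, Bleomycin 3 or Bleomycin 4, and 2 in celastrol without PBS 3 or Celastrol 5. No gene of these 3 lists was at 0 throughout a group.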

How the data were processed

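RNA from skin homogenates was sequenced with a total RNA library kit, per the labels' protocols. The deposited table gives 1 signal per gene and library, which the authors made from gene counts with DESeq2 size factors in the poscounts form, per the name of the deposited table. STAR 2.7.3a, Partek 10.0.22 and mm10 are named in the submitters' processing notes. Settings, annotation and use of strand are not given in the sources used here. Of 24612 rows, 23752 matched GENCODE M21 by symbol and position. The smallest row maximum was 10.3.

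The value of a single read was estimated from the steps between low values. Between 58.9% and 67.6% of values per library came within 0.03 reads of a whole number, so counts were not recovered and no count model was used. Groups were compared with limma 3.58.1 (R 4.3.3, lmFit and trended eBayes) on log2(value + 1), over all 8 libraries, for genes with at least 10 in at least 2 libraries, two-sided, and it was tested on simulated data. Sequences were read with Python 3.11.15 and aligned with Biopython 1.88.

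Named genes were Defb8, the other Defb rows, rows within 500 kb, the 10 highest Pearson correlations, genes at 0 outside PBS, and called list members with the smallest p, up to 4 per list, of which the report gives those beside Defb8. Further list members were named after their values were seen. Lists covered antimicrobial genes, defensin signals and cell types. Members and lists were chosen with earlier results of these data known. Alternatives were scaling, pseudocount, filter, groups fitted, a replicate block and leaving out each library.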

Additional observations from a re-analysis of the deposited data

How the results depend on the processing

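The zeros of Defb8 hold under any rescaling, and its PBS mean of 923 was 956 after scaling to a common upper quartile. No other beta-defensin was called in any of 194 alternative fits. Against PBS, Defb1 ranged from 0.59 to 1.32, Defb6 from 0.63 to 1.08 and Defb42 from 0.70 to 1.68 on the log2 scale. Defb4 and Defb12 were not tested where a left-out library took them below the filter. With 1 library left out, genes called numbered 16 to 229 in bleomycin against PBS, 38 to 418 in celastrol against PBS and 0 to 1 in celastrol against bleomycin, where 157, 317 and 0 had been called. The first was 70 without PBS 2, 18 without PBS 3, 33 without Bleomycin 3, 16 without Bleomycin 4 and 103 without Celastrol 5. The second was 104 without PBS 2, 38 without PBS 3, 158 without Bleomycin 4, 143 without Celastrol 2 and 39 without Celastrol 5. The third was 1 without Bleomycin 3 or Celastrol 3. With 1 PBS library left out, 1 gene (without PBS 3) to 8 genes (without PBS 2) were at 0 in the 6 other libraries and at 20 or more in PBS. The cause was not tested. Scaling to the upper quartile moved the median log2 change of all genes in celastrol against PBS from -0.07 to -0.19, and the calls there from 191 higher and 126 lower to 111 higher and 151 lower. With the replicate number as a block 17 genes were called in bleomycin against PBS and 41 in celastrol against PBS. The labels give no meaning to these numbers. Deviations of same-numbered libraries correlated between -0.005 and 0.203, highest for PBS 2 and Bleomycin 2. That correlation runs over all genes, so it cannot show whether some genes vary with the number. In Krt10, Col17a1, Fasn and Lor, PBS 2 and Bleomycin 2 lay above every other library. Krt10 was at 186490 and 166015 there and at 80035 or less elsewhere. Celastrol 2 did not share this, with Krt10 at 77697, and the cause was not tested. With a pseudocount of 10, 8 of the 10 genes most like Defb8 were the same. Over single genes and settings 353 calls were lost, 47 were gained and 0 changed direction. PBS has 2 libraries, which limits every comparison with it.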

Other observations

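Other lists were read for the cells a skin sample could hold, with values and no explanation. Beside their counts, limma called 0.677% of all genes in bleomycin against PBS and 1.37% in celastrol against PBS. Of 21 markers of the male reproductive tract, where many beta-defensins are expressed, 2 were measured, Adam28 and Rnase10, and they summed to between 132 and 211 in PBS, 112 and 203 in bleomycin and 37.2 and 125 in celastrol libraries, with 0 called in limma. Of 8 measured markers of oral and esophageal epithelium, Tmprss11d was called as higher in both comparisons with PBS, and the sums were 1842 to 2538 in PBS and 1653 to 3259 in the 6 others. Of 7 measured gland markers, Scgb1b27 was called as higher in celastrol against PBS, at 4.17 and 0 in PBS and 50.9, 150 and 66.2 in Celastrol 2, 3 and 5.

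Among differentiated epidermal genes Flg, which codes for the barrier protein filaggrin, rose by 1.81 ± 0.25 in bleomycin against PBS (limma adjusted p = 0.0144) and by 2.40 ± 0.25 in celastrol against PBS (adjusted p = 0.00379), and Casp14 rose in the latter. Over all genes, 0.453% were called as higher and 0.224% as lower in bleomycin against PBS, and 0.824% and 0.543% in celastrol against PBS. Hair follicle markers gave 0 calls among 10 tested, which is near those shares. Of 14 skeletal muscle markers 1 rose in bleomycin and 6 in celastrol against PBS. Of 9 neutrophil genes 3 rose and 1 fell in bleomycin, and 4 rose and 1 fell in celastrol. Of 14 macrophage genes 2 rose in each comparison with PBS. These lists share called genes with those of the report, so their counts are not separate results: S100a8 and S100a9 are also antimicrobial and wounded epidermis genes, Stfa2 is also a wounded epidermis gene, and Chil3 is also an antimicrobial gene. In celastrol against bleomycin 0 of all 23185 genes were called, so that 0 members of these lists were called there tells nothing about the lists. Of the 14 skeletal muscle markers, 9 had an unadjusted p below 0.05 in limma there, beside 898 of all genes. Their median log2 change was 1.05, beside -0.04 over all genes. Flg passed in celastrol with any library left out, and in bleomycin not without PBS 3, Bleomycin 3 or Bleomycin 4. Scgb1b27 lost its call with any library left out. In bleomycin Tmprss11d lost its call without PBS 2, PBS 3, Bleomycin 3, Bleomycin 4 or Celastrol 5, and the muscle gene called, Myh1, passed only without Celastrol 2 or Celastrol 3. The neutrophil list had 0 higher calls in bleomycin without PBS 3, Bleomycin 3, Bleomycin 4 or Celastrol 5. Without Celastrol 5 the calls of Casp14, Tmprss11d and the muscle and neutrophil lists in celastrol were lost, those of Casp14 and Tmprss11d also without PBS 3, and the macrophage list kept 1 without Celastrol 2 or Celastrol 5. Without Bleomycin 4 the differentiated epidermis, hair follicle, muscle, neutrophil, macrophage, oral and gland lists had 0 calls in bleomycin against PBS. The wounded epidermis list kept 1 there.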
